A study of Mus musculus with 8 samples.

Results

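Metabotropic glutamate receptor genes were followed in mouse prefrontal cortex. The 7 genes Grm2, Grm3, Grm4, Grm5, Grm6, Grm7 and Grm8 were taken by symbol from 24420 genes counted in all libraries, and 6 of the 7 passed the filter on low counts. Poly(A) RNA was sequenced in 8 libraries: 2 from Shank3 mutants given romidepsin (the romidepsin group), 3 from Shank3 mutants given saline (the saline group) and 3 from wild-type mice. Both mutant groups were heterozygous males (Shank3+/ΔC) lacking exon 21 of 1 copy, which removes the C-terminal part of the Shank3 protein, and the wild-type mice were male littermates. Romidepsin, a histone deacetylase inhibitor, was injected at 0.25 mg/kg once daily for 3 days, saline was given to the other mutants, and the cortex was collected 1 day after dosing ended. The sample labels give an age of 5 to 6 weeks and the series' design text 5 to 8 weeks. No treatment is named for the wild-type mice, so injection and genotype cannot be told apart in comparisons with wild type. Nothing in the labels ties a library to its own animal, and the p-values therefore reflect library-to-library spread, which may be technical.

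Metabotropic glutamate receptors are G protein-coupled receptors that tune glutamate transmission more slowly than the receptor channels. Group I receptors, here Grm5, sit mainly beside the postsynaptic density, act through Gq proteins on phospholipase C, and are tied through Homer proteins to Shank scaffolds. Group II (Grm2, Grm3) and group III (Grm4, Grm6, Grm7, Grm8) receptors act through Gi/o proteins, lower cyclic AMP and mostly restrain transmitter release. Grm3 is also made by astrocytes, Grm7 sits in the presynaptic active zone, and Grm6 is known for its role in ON bipolar cells of the retina.

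The genes were placed by the GENCODE annotation of GRCm38, the assembly named in the submitters' processing notes. Grm2 (chromosome 9, 106643095 to 106656082, minus strand) and Grm6 (chromosome 11, 50850685 to 50866208, plus strand) are compact, spanning 12.99 kb and 15.52 kb. The other 5 spread their exons over much longer stretches. Grm4 (chromosome 17, 27422387 to 27521403) covers 99.02 kb, Grm3 (chromosome 5, 9485541 to 9725170) 239.6 kb and Grm5 (chromosome 7, 87584168 to 88134907) 550.7 kb. Grm8 and Grm7, both on chromosome 6 at 27275119 to 28135178 and 110645581 to 111567230, cover 860.1 kb and 921.7 kb. Mir592, which the tables list, lies on the same strand as Grm8 and shares 96 exon bases with it. Antisense transcripts overlap 9.60% of the exon bases of Grm2, 11.0% of those of Grm6 and 2.21% of those of Grm7. None of these antisense genes has an entry in the count tables, and the strand setting of the counting is not given in the sources used here, so reads from them cannot be told apart from reads of the receptor genes.

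The start regions of Grm2, with 466 to 852 reads per library, and of Grm6, with 0, are shown because these are the compact genes of the family and reads were found for the first and not for the second. Each runs 5′ to 3′ on the gene's own strand, from 250 bases before to 50 bases after the start in RefSeq (GRCm38.p6). Capitals mark the GC box, GGGCGG or CCGCCC on the other strand. The Grm2 window is chr9:106656060-106656359, minus strand, and the Grm6 window is chr11:50850435-50850734, plus strand.
Grm2: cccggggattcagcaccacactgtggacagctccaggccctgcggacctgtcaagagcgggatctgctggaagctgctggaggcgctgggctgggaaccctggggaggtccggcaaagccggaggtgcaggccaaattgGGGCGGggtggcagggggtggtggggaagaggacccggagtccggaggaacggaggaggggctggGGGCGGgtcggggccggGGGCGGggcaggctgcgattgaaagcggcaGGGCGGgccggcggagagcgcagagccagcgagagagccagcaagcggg
Grm6: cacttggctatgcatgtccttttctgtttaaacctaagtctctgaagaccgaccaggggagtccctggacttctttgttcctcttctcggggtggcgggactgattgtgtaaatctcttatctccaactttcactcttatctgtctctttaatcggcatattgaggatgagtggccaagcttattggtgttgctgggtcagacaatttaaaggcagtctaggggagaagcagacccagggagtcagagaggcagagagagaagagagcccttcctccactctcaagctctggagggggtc
The Grm2 window held 4 GC boxes, 22 CpG dinucleotides and 72.0% G and C. The Grm6 window held 0 GC boxes, 4 CpG dinucleotides and 49.7% G and C. Of 32851 such windows of all genes, 35.7% held a GC box and 5.49% held at least 4, and the median window had 7 CpG dinucleotides. Windows were at hand for 5 of the 7 genes, and the Grm3 window had 11 CpG dinucleotides and 2 GC boxes. The windows of Grm7 and Grm8, which have several starts each, had 10 to 15 and 2 to 33 CpG dinucleotides. Each Grm7 window held 1 GC box, and the Grm8 windows held 1, 0 and 0, although reads were found for both genes. A match is a description of these letters and no measurement of a factor's binding.

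The libraries held 7783537 to 15156318 read counts on genes. Shank3 itself stood at 315 and 313 CPM (counts scaled to library size, with TMM factors) in the romidepsin group, 316, 252 and 301 in the saline group, and 299, 308 and 348 in wild type, with the saline group overlapping both others. Reads on the exons that the deleted copy keeps are counted too, so these values do not check the genotype. The labels name neurons as the cell type, but the tissue was whole. Summed over 4 oligodendrocyte markers the libraries held 2517 to 4670 CPM, and over 6 astrocyte markers 1976 to 2784 CPM, beside 3837 to 5547 CPM over 4 neuronal markers. Wild-type replicate 3 stood apart within its group, with the lowest neuronal sum (3837 CPM, against 5547 and 5127 in the other wild-type libraries) and the highest astrocyte sum (2784 CPM, against 1976 and 2092). In such bulk RNA, fewer cells of a type and less RNA per cell cannot be told apart.

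Per length, Grm3 and Grm5 were the most abundant of the family, and Grm6 was not detected. Levels are CPM per kb of the exons of coding transcripts, averaged over all 8 libraries. Grm3 averaged 35.3 ± 1.63 CPM per kb (SD, n = 8), Grm5 29.0 ± 2.33, Grm7 12.5 ± 1.05 and Grm2 11.9 ± 1.68. Grm8 averaged 6.72 ± 1.42 and Grm4 3.33 ± 0.597. Grm3 was above Grm5 in 8 of 8 libraries, by 1.01 to 1.37 times. Grm5 was above Grm7 by 1.94 to 2.82 times with no overlap between their ranges. Grm7 and Grm2 were not distinguished, since Grm7 was the higher of the pair in 4 of 8 libraries. Grm2 was above Grm8 by 1.48 to 2.52 times in every library. Grm8 was above Grm4 in 8 of 8 libraries, by 1.15 to 3.43 times, although their ranges overlapped. Taking the longest coding transcript as the length, a choice made after the data were seen, left this order as it was. With the exons of non-coding transcripts included, Grm8 has 9898 exon bases in place of 4081, and Grm4 5977 in place of 5579. Grm7 then has 5886 in place of 4661, and Grm2 4894 in place of 4735. The order was not computed with those lengths, so the places of these 4 genes hold for coding transcripts only. The annotation that the authors counted on is not given in the sources used here, so the lengths may differ from theirs.

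**Figure D1:**
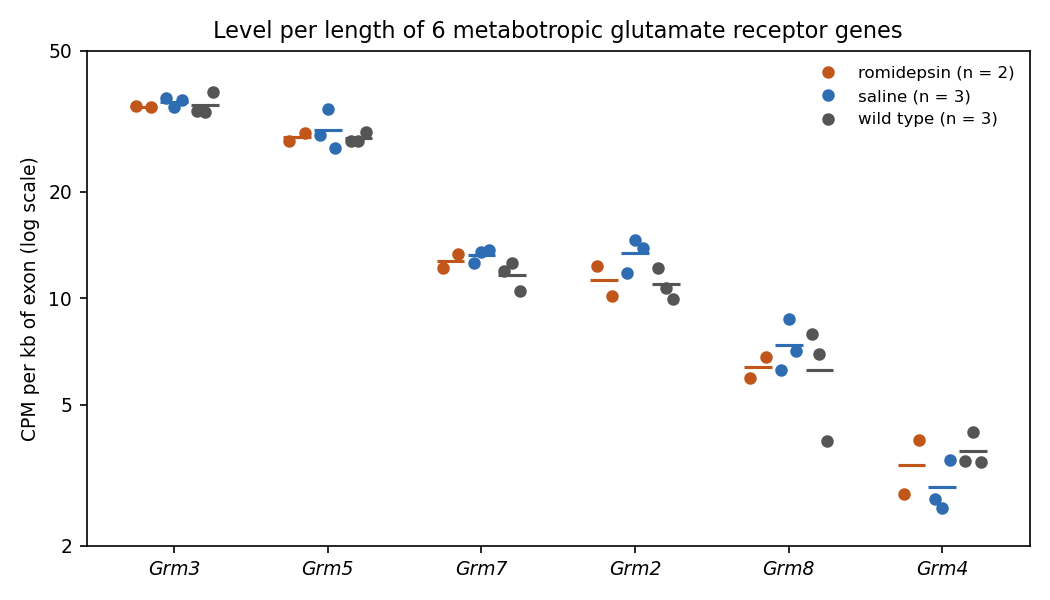
Level of each receptor gene in CPM per kb of exon on a log axis, with 1 point per library and a bar at each group mean (romidepsin n = 2, saline n = 3, wild type n = 3). Grm3 and Grm5 lie highest in all 3 groups, Grm4 lowest. Grm6, at 0 reads, is not drawn.

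Grm6 had 0 reads in all 8 libraries. A count of 0 allows up to 3 reads, which is 0.198 CPM in the deepest library and 0.385 CPM in the shallowest, for counting error only. It was therefore not detectable at this depth in any group, and no fold change was computed.

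Counting error was small for the abundant receptors and larger for the rare ones. Grm5 had 1683 to 3598 reads per library, a counting error of at most 2.44% of the count, while Grm4 had 136 to 311 reads and a counting error of up to 8.57%. The spread within groups followed a different order. On the log2 CPM scale the pooled SD within groups was 0.07 for Grm3, 0.10 for Grm7, 0.12 for Grm5, 0.16 for Grm2, 0.24 for Grm4 and 0.37 for Grm8, against a median of 0.15 over all tested genes. Grm3 was thus among the steadier genes, with a smaller SD in 11.7% of tested genes, and Grm8 among the more variable ones, with a smaller SD in 87.1%.

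The comparisons asked whether the partial loss of Shank3 changed these receptors' transcripts and whether romidepsin changed them in the mutants. None of the 6 tested receptor genes passed in any comparison. In romidepsin against saline 0 of 6 were called by edgeR's quasi-likelihood test (adjusted p under 0.05 over all 14809 genes; 0% of all tested genes called), and 0 were at an unadjusted p under 0.05 (3.26% of all tested genes). In saline against wild type 0 of 6 were called (0.00675% of all tested genes), and 2 of 6, Grm2 and Grm4, were at an unadjusted p under 0.05 (8.39% of all tested genes). That count was 0 of 6 without saline replicate 2, and 1 of 6 without saline replicate 1, saline replicate 3, wild-type replicate 2 or wild-type replicate 3. For romidepsin against saline it was 1 of 6 with no filter on low counts and with only the 2 groups fitted. The count was also 1 of 6 without saline replicate 1, wild-type replicate 1 or wild-type replicate 3. Settings that leave only 1 romidepsin library are not part of this list, so it does not bound the count. In romidepsin against wild type 0 of 6 were called (0.00675%), with 0 at an unadjusted p under 0.05 (3.24%). DESeq2 and limma-voom also called 0 of 6 in each comparison. For none of the 6 genes did the libraries of 2 groups separate without overlap, while 20.9%, 12.6% and 18.4% of all tested genes did so in romidepsin against saline, saline against wild type and romidepsin against wild type. The log2 fold change was above 0 for 1 of 6 in romidepsin against saline (49% of all tested genes), in saline against wild type 5 of 6 (51.3%) and in romidepsin against wild type 4 of 6 (50%). The median log2 fold change of the 6 genes was -0.06 in romidepsin against saline, 0.13 in saline against wild type and 0.02 in romidepsin against wild type. Over all tested genes it was -0.0029, 0.0047 and 4.2e-05. Romidepsin against saline and saline against wild type share the saline libraries, so opposite signs in the pair are not separate observations.

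Grm5, the group I receptor and partner of Homer and Shank proteins, stood at nearly the same level in the 3 groups. Its CPM was 226 and 238 in the romidepsin group, 236, 278 and 216 in the saline group, and 226, 226 and 240 in wild type. The saline libraries held both the highest and the lowest of these values and enclosed the other groups. The ratio of saline to wild type was 1.06 (95% interval 0.925 to 1.20; edgeR adjusted p = 0.846), and that of romidepsin to saline was 0.954 (0.823 to 1.11; adjusted p = 1.00). Without saline replicate 2, the highest library, the log2 fold change of saline against wild type was -0.029, against 0.08 with it. The ratio of romidepsin to wild type was 1.01 (0.869 to 1.17).

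Grm2, a presynaptic group II receptor, had the smallest p of the family in saline against wild type. Its CPM was 58.5 and 47.9 in the romidepsin group, 55.8, 69.0 and 65.8 in the saline group, and 57.6, 50.5 and 47.2 in wild type. Saline replicates 2 and 3 lay above every other library, and saline replicate 1 lay below romidepsin replicate 1 and wild-type replicate 1. The saline group averaged 63.6 ± 6.89 CPM and wild type 51.8 ± 5.32 (SD, n = 3 each), or 0.29 higher in log2 (SE 0.11; edgeR unadjusted p = 0.0170 and adjusted p = 0.465). In the 15 alternative settings this log2 fold change lay between 0.22 and 0.38, with an adjusted p of at least 0.278. The romidepsin libraries averaged 53.2 ± 7.47 CPM (n = 2), with a log2 difference of -0.25 to saline (SE 0.12; edgeR adjusted p = 1.00) and 0.04 to wild type (SE 0.12; adjusted p = 0.999). Without romidepsin replicate 1 the difference to saline was -0.40, and without romidepsin replicate 2 it was -0.11. Saline replicates 2 and 3 were also the libraries with the most RNA of olfactory bulb markers. Summed over 6 such markers, all 6 of them read in each group, the level was 9.06 and 11.3 CPM in the romidepsin group, 11.9, 40.3 and 41.4 in the saline group, and 11.5, 8.28 and 26.0 in wild type. Tbx21, which marks the bulb's output neurons, had few reads and did not set saline replicate 3 apart. It had 6 reads in saline replicate 2 and 5 in wild-type replicate 3. It had 1 in saline replicate 3, in wild-type replicate 1 and in each romidepsin library, and 0 in saline replicate 1 and wild-type replicate 2. The part of such tissue in the Grm2 values was not tested.

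Grm3, the other group II receptor and one shared with astrocytes, was the steadiest member. Its CPM was 107 and 105 in the romidepsin group, 112, 106 and 111 in the saline group, and 103, 102 and 117 in wild type. The highest value, 117, was that of wild-type replicate 3, the library with the highest astrocyte marker sum, and the lowest, 102, that of wild-type replicate 2. The astrocyte sum over 6 of 6 markers was 2399 and 2250 CPM in the romidepsin group, 2586, 2163 and 2249 in the saline group, and 1976, 2092 and 2784 in wild type; its part in the Grm3 values was not tested. In log2, saline against wild type differed by 0.03 (95% interval -0.13 to 0.19) and romidepsin against saline by -0.05 (-0.23 to 0.14). Neither passed (edgeR adjusted p = 1.00 for romidepsin against saline and 0.942 for saline against wild type).

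Grm4, a group III receptor with the fewest reads of those detected, was the member with a negative log2 fold change in saline against wild type. Its CPM was 15.6 and 22.1 in the romidepsin group, 15.1, 14.3 and 19.5 in the saline group, and 19.4, 23.4 and 19.2 in wild type. Saline replicates 1 and 2 lay below all wild-type libraries, saline replicate 3 lay among them, romidepsin replicate 1 lay below them and romidepsin replicate 2 among them. The saline group averaged 16.3 ± 2.81 CPM and wild type 20.7 ± 2.39 (SD, n = 3 each), a log2 difference of -0.36 (SE 0.15; edgeR unadjusted p = 0.0363 and adjusted p = 0.557). Across the 15 alternative settings it lay between -0.49 and -0.26, with an adjusted p of at least 0.357. The romidepsin libraries averaged 18.8 ± 4.64 CPM (n = 2), 0.22 above saline in log2 (SE 0.18; edgeR adjusted p = 1.00). That difference rested on romidepsin replicate 2, since without it the log2 fold change was -0.054, and without romidepsin replicate 1 it was 0.45.

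Grm7, the active zone receptor of group III, varied little. Its CPM was 56.7 and 62.1 in the romidepsin group, 58.6, 63.1 and 63.6 in the saline group, and 55.7, 58.7 and 48.8 in wild type. All saline libraries lay above the wild-type mean, but wild-type replicate 2 lay just above saline replicate 1. The ratio of saline to wild type was 1.13 (95% interval 0.994 to 1.29; edgeR unadjusted p = 0.0594, adjusted p = 0.608). Without wild-type replicate 3, which had the lowest Grm7 value and the lowest neuronal marker sum, the log2 fold change was 0.10, against 0.18 with it. The part of that library's make-up in the Grm7 values was not tested. Romidepsin to saline gave 0.964 (0.832 to 1.12; adjusted p = 1.00), and romidepsin to wild type 1.09 (0.944 to 1.27; adjusted p = 0.999).

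Grm8, a further presynaptic group III receptor, was the most variable member, and its lowest value was that of wild-type replicate 3. Its CPM was 24.3 and 27.9 in the romidepsin group, 25.6, 35.7 and 28.9 in the saline group, and 32.3, 28.5 and 16.1 in wild type. The last of these, wild-type replicate 3, lay below every other library and was also the library with the lowest neuronal marker sum. The neuronal sum over 4 of 4 markers was 4859 and 4923 CPM in the romidepsin group, 4387, 5248 and 5073 in the saline group, and 5547, 5127 and 3837 in wild type; its part in the Grm8 values was not tested. The log2 fold change of saline against wild type was 0.22 (SE 0.22; edgeR adjusted p = 0.820) with that library and -0.028 without it. Romidepsin against wild type gave 0.03 (SE 0.25) with it and -0.23 without it. Romidepsin against saline gave -0.20 (SE 0.25; edgeR adjusted p = 1.00) and was -0.051 without saline replicate 2.

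**Figure D2:**
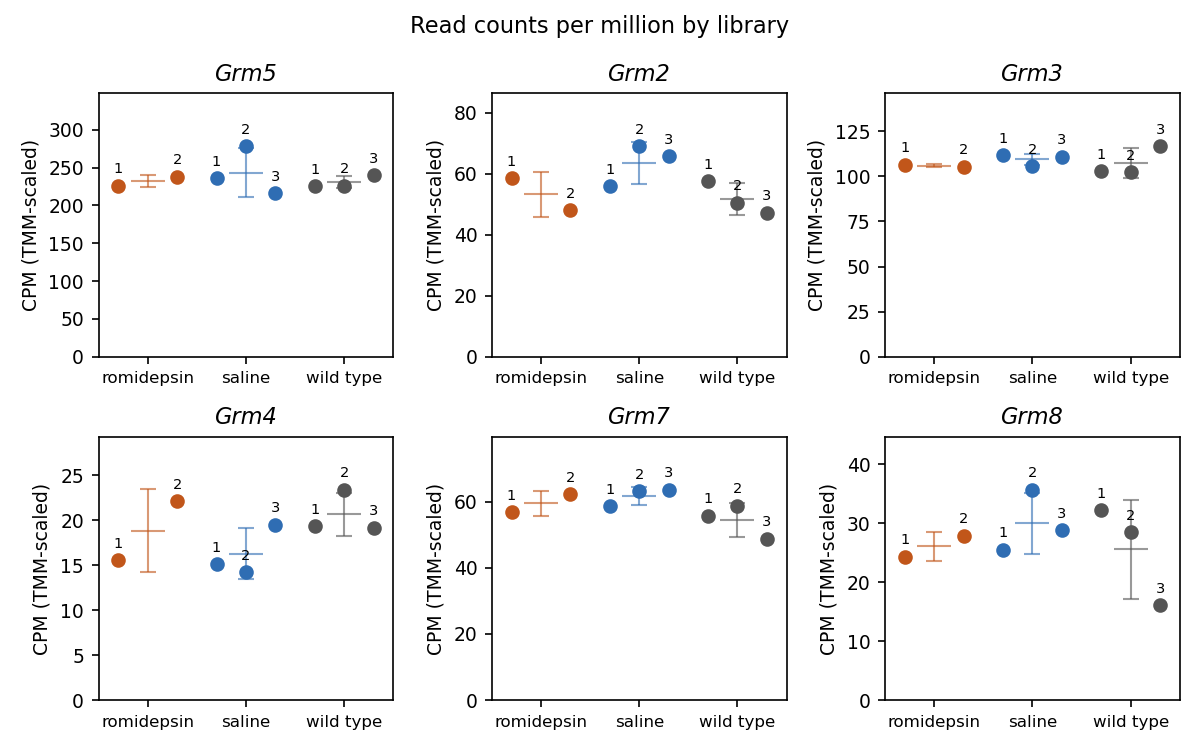
CPM of each of the 6 tested receptor genes, with 1 point per library labelled by its replicate number and group means ± SD (romidepsin n = 2, saline n = 3, wild type n = 3), each axis from 0. Groups overlap in every panel; saline replicates 2 and 3 are the highest for Grm2, and wild-type replicate 3 is the lowest for Grm8 (16.1 CPM).

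**Figure D3:**
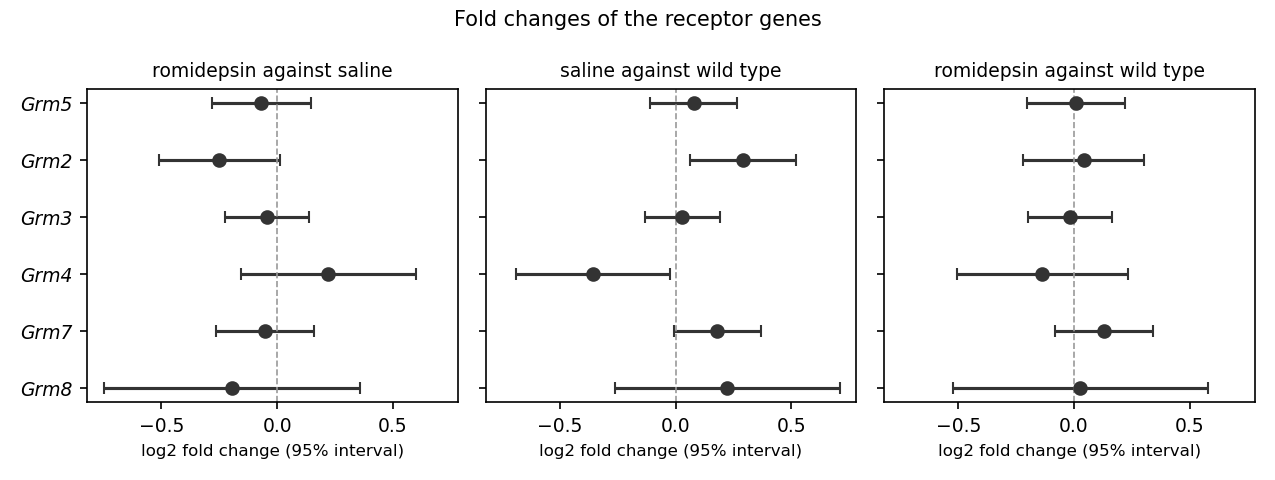
Log2 fold changes of the 6 tested receptor genes with 95% intervals from the edgeR fit, for 3 comparisons. The intervals of Grm3, Grm5 and Grm7 are narrow and include 0 throughout, that of Grm8 is the widest, and those of Grm2 and Grm4 exclude 0 in saline against wild type before adjustment over all genes.

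Summed over the 7 genes, the receptor level was slightly higher in the saline libraries than in the others. The sum was 96.0 and 98.1 CPM per kb in the romidepsin group, 98.9, 108 and 101 in the saline group, and 96.9, 95.7 and 95.6 in wild type. All saline values lay above all values of the other groups, by a margin that was small for saline replicate 1. The means were 103 ± 4.90 CPM per kb in the saline group and 96.1 ± 0.724 in wild type (SD, n = 3 each). The difference in log2 was 0.10, with p = 0.10 in an exact two-sided permutation test, the smallest that 3 against 3 libraries allow. The romidepsin group, at 97.1 ± 1.47 (n = 2), differed from the saline group by -0.08 in log2 (exact p = 0.20, the smallest that 2 against 3 libraries allow) and from wild type by 0.01 (exact p = 0.40). Adjusted over the 6 such tests made, these gave 0.60, 0.60 and 0.80. Without saline replicate 2, the highest library, the difference was 0.057 for saline against wild type and -0.042 for romidepsin against saline.

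In the make-up of that sum, the group II share overlapped between the groups. The shares of Grm5 and of group III were not tested. Grm2 and Grm3 together gave 49.3% and 45.6% of it in the romidepsin group, 49.0%, 45.5% and 49.8% in the saline group, and 47.4%, 46.2% and 50.5% in wild type. Grm5 gave 26.3% to 31.6% over all libraries. The group III genes gave 18.7% in wild-type replicate 3 and 21.8% to 24.8% in the other libraries. The group II share averaged 47.4% ± 2.61 in the romidepsin group (n = 2), 48.1% ± 2.28 in the saline group (n = 3) and 48.0% ± 2.23 in wild type (n = 3), with exact permutation p = 1.00 for romidepsin against saline and for saline against wild type, and 0.80 for romidepsin against wild type (adjusted p = 1.00 for all 3). Within group II, Grm2 stood per length at 0.293 to 0.354 of Grm3 in the romidepsin group, 0.322 to 0.421 in the saline group and 0.260 to 0.361 in wild type.

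**Figure D4:**
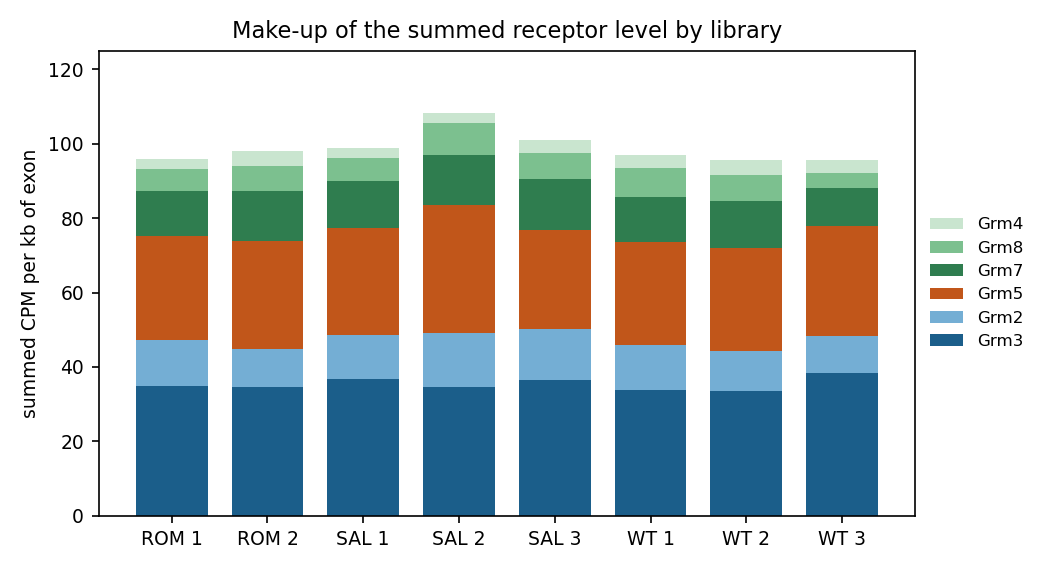
Summed level of the receptor genes in each library in CPM per kb of exon, stacked by gene (ROM romidepsin, SAL saline, WT wild type, with replicate numbers). The totals lie between 95.6 and 108, the tallest bar is saline replicate 2, and Grm3 with Grm2 and Grm5 fill most of each bar.

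The genes whose levels ran most like each receptor's over the 8 libraries were found among 13719 named genes, by Pearson correlation of log2 CPM. Each is the highest of many correlations, so the value is a description. Mt1, a metallothionein gene, was nearest to Grm3 (r = 0.99), followed by the kinase gene Sgk3 (0.98). Rab6a, a Golgi GTPase gene, and Rad23b, a DNA repair and proteasome shuttle gene, were nearest to Grm8 (0.99 for both), and Grm8 had 364 genes above a correlation of 0.9 where the other members had 23 to 67. Slfn2 and Arf4 were nearest to Grm5 (0.98 and 0.97), and Ngly1 and Fbxl4 to Grm2 (0.98 for both). Fen1 and Mak16 were nearest to Grm7 (0.98 and 0.97), and Ddx51 and Desi1 to Grm4 (0.96 for both). Over the 6 libraries left without the 2 farthest from the receptor's median, the correlations were 0.78 (Arf4) to 0.98 (Rad23b). All 8 libraries share group and tissue differences, so these likenesses carry no more than that the values moved together.

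The proteins that receptors bind and signal through were read from 6 lists with 77 genes in all, and all 77 passed the filter. In romidepsin against saline 0 of 77 were called by edgeR and 2 were at an unadjusted p under 0.05, 1 higher (1.73% of all tested genes) and 1 lower (1.53%), together 2.60% of the 77 against 3.26%. In saline against wild type 0 were called and 6 were at an unadjusted p under 0.05, 3 higher (3.59% of all tested genes) and 3 lower (4.8%), together 7.79% of the 77 against 8.39%. In romidepsin against wild type both counts were 0. The median log2 fold change of the 77 was 0.03, 0.0030 and 0.02 in these comparisons. Without wild-type replicate 3, Homer1 and Dagla were called lower in saline against wild type (edgeR adjusted p = 0.0121 and 0.0363). In that setting 54 genes of all tested were called, 46 of them lower. Homer1 and Dagla each passed in 1 of the 15 alternative settings, over which their adjusted p ranged up to 0.914 and 0.893.

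Of 15 scaffold and binding partners, 10 had a positive log2 fold change in romidepsin against saline (median 0.07) and 6 in saline against wild type (median -0.06). Homer1, which links Grm5 to Shank, stood at 221 and 232 CPM in the romidepsin group, 204, 230 and 205 in the saline group, and 293, 286 and 192 in wild type. Wild-type replicate 3 lay below the other libraries and wild-type replicates 1 and 2 above them. Grasp, which encodes the trafficking scaffold tamalin, averaged 56.2 ± 4.44 CPM in the romidepsin group (n = 2), 50.5 ± 2.99 in the saline group and 60.8 ± 6.16 in wild type (edgeR adjusted p = 0.445 for saline against wild type). Elfn2, a synaptic adhesion protein that binds group III receptors across the synapse, averaged 150 ± 6.62 CPM in the romidepsin group, 137 ± 4.68 in the saline group and 157 ± 8.24 in wild type (adjusted p = 0.465). The saline libraries of Grasp and Elfn2 were lower than each wild-type library, as for 6.36% of all tested genes. In romidepsin against saline the smallest p of the list belonged to Elfn1, a partner of Grm7, at 46.7 ± 3.19 CPM in the romidepsin group and 40.4 ± 3.14 in the saline group. Shank1 averaged 781 ± 32.7 CPM in the romidepsin group and 682 ± 85.3 in the saline group, and Shank2 averaged 254 ± 11.2 in the romidepsin group and 229 ± 17.5 in the saline group.

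On the Gq side, which carries Grm5 signals, 8 of 14 genes had a positive log2 fold change in romidepsin against saline and 7 of 14 in saline against wild type. Dagla, the lipase that makes the endocannabinoid 2-AG after receptor activation, stood at 138 and 131 CPM in the romidepsin group, 106, 108 and 120 in the saline group, and 152, 140 and 113 in wild type. Both romidepsin libraries lay above all saline libraries, as for 10.8% of all tested genes, and saline replicate 3 lay above wild-type replicate 3. The log2 fold change was 0.28 (SE 0.11) in romidepsin against saline and -0.27 (SE 0.10) in saline against wild type, with shared saline libraries (edgeR adjusted p = 1.00 and 0.456). Plcb4, a phospholipase C, averaged 37.6 ± 2.37, 47.7 ± 4.90 and 40.0 ± 6.84 CPM in the romidepsin group, the saline group and wild type, with both romidepsin libraries below all saline libraries, as for 10.2% of all tested genes. Cnr1, the receptor for endocannabinoids, averaged 232 ± 0.308 CPM in the romidepsin group, 236 ± 21.8 in the saline group and 211 ± 12.4 in wild type. Mgll, which degrades 2-AG, stood at 416 ± 25.0 CPM in the romidepsin group and 378 ± 27.6 in the saline group.

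On the Gi/o side, which serves groups II and III, 10 of 16 genes had a positive log2 fold change in romidepsin against saline (median 0.02) and 9 of 16 in saline against wild type (median 0.03). Gnai1, an inhibitory G protein subunit, stood at 205 and 208 CPM in the romidepsin group, 208, 257 and 225 in the saline group, and 211, 196 and 180 in wild type. The saline group was the highest on average, but saline replicate 1 lay below wild-type replicate 1 (log2 fold change 0.23, SE 0.09; edgeR adjusted p = 0.474). Among the adenylyl cyclases that Gi/o proteins inhibit, Adcy9 averaged 116 ± 7.55, 106 ± 1.60 and 121 ± 12.6 CPM in the romidepsin group, the saline group and wild type, and Adcy1 averaged 1623 ± 45.5, 1493 ± 119 and 1644 ± 89.5. The inwardly rectifying potassium channel genes Kcnj3 and Kcnj6, whose channels these receptors open, stood at 126 ± 0.317 and 34.1 ± 6.96 CPM in the romidepsin group, against 146 ± 21.9 and 28.0 ± 1.32 in the saline group (adjusted p = 1.00 for both).

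Of 10 genes that end receptor signalling, 5 had a positive log2 fold change in romidepsin against saline and 3 in saline against wild type, with medians of 0.0041 and -0.0093. Rgs2, which speeds the return of G proteins to rest, averaged 52.2 ± 1.31, 56.7 ± 2.36 and 51.4 ± 1.81 CPM in the romidepsin group, the saline group and wild type (edgeR adjusted p = 0.639 for saline against wild type). The receptor kinase gene Grk5 averaged 25.5 ± 0.669 CPM in the saline group and 23.4 ± 2.33 in wild type. The arrestin genes Arrb1 and Arrb2 averaged 492 ± 8.91 and 37.6 ± 3.61 CPM in the romidepsin group, against 462 ± 35.3 and 34.2 ± 2.52 in the saline group. None of these differences passed.

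Group I receptors also drive local protein synthesis and synaptic depression, and of 9 genes for that 5 had a positive log2 fold change in romidepsin against saline and 4 in saline against wild type. Eef2k, the kinase that slows translation elongation, stood at 44.6 and 40.3 CPM in the romidepsin group, 45.2, 43.2 and 43.6 in the saline group, and 35.1, 36.7 and 41.5 in wild type. All saline libraries lay above all wild-type libraries, as 6.26% of all tested genes did, and the gene did not pass (log2 fold change 0.22, SE 0.09; edgeR adjusted p = 0.533). Ptpn5, a synaptic tyrosine phosphatase, averaged 184 ± 6.35 CPM in the saline group and 196 ± 13.1 in wild type, and Fmr1, a repressor of synaptic translation, 89.0 ± 4.67 and 94.1 ± 7.08. Map1b, a microtubule protein gene, averaged 1373 ± 60.7 CPM in the romidepsin group and 1263 ± 26.8 in the saline group. Eef2 averaged 1323 ± 24.6 CPM in the romidepsin group and 1234 ± 92.5 in the saline group, and Eif4ebp2 averaged 23.6 ± 1.30 in the romidepsin group and 21.4 ± 1.91 in the saline group.

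Of 13 genes that supply or clear the receptors' ligands, 9 had a positive log2 fold change in romidepsin against saline and 10 in saline against wild type, both with a median near 0 (0.02 and 0.03). Slc17a6, the vesicular glutamate transporter of subcortical neurons, stood at 8.96 and 10.7 CPM in the romidepsin group, 10.4, 14.0 and 14.5 in the saline group, and 9.01, 10.5 and 8.86 in wild type. Its highest libraries, saline replicates 2 and 3, were those high in Grm2 and in olfactory bulb markers (log2 fold change 0.44, SE 0.16 in saline against wild type; edgeR adjusted p = 0.470). Its cortical counterpart Slc17a7 averaged 1660 ± 1.39 CPM in the romidepsin group and 1572 ± 56.5 in the saline group. Slc7a11, the cystine and glutamate exchanger, averaged 93.2 ± 6.45, 109 ± 22.0 and 93.0 ± 21.4 CPM in the romidepsin group, the saline group and wild type. Rimklb, which makes the peptide NAAG that activates Grm3, averaged 45.0 ± 2.45 CPM in the romidepsin group, 43.4 ± 4.63 in the saline group and 40.4 ± 6.09 in wild type. None of these passed.

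**Figure D5:**
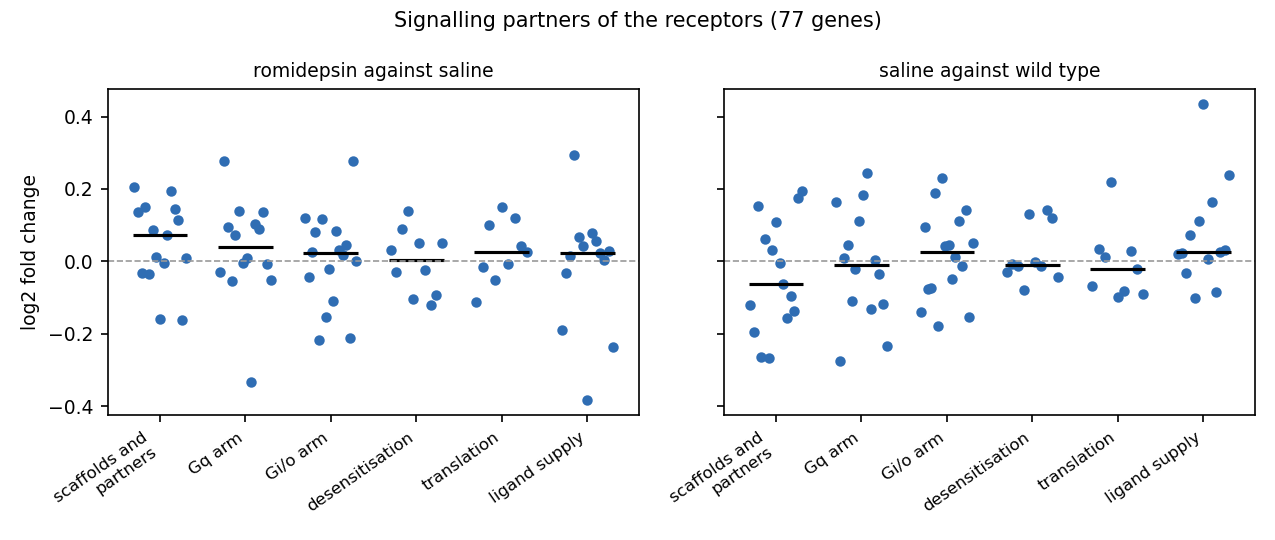
Log2 fold changes of 77 genes that bind, transmit or end metabotropic receptor signals or supply the ligand, in 6 lists, with a bar at each list's median, for romidepsin against saline and saline against wild type. The lists' medians lie between -0.06 and 0.07 in both panels, and no gene shown passed the test.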

How the data were processed

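Each library's deposited table gives unnormalized read counts by symbol. The submitters' processing notes name bcl2fastq 2.17.1.14, TopHat2 2.1.1, HTSeq 0.6.1 and the mm10/GRCm38 build. For the annotation and the strand setting: not given in the sources used here. Between 32.4% and 35.3% of HTSeq's tallies fell on genes, 48.0% to 49.3% on no feature and 15.5% to 18.1% were not unique, in the 7 libraries whose tables hold summary entries. Those entries were left out of library sizes.

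Counts were fitted with edgeR 4.0.16 (filterByExpr, TMM scaling, robust quasi-likelihood, a term per group over all 8 libraries). The filter left 14809 genes and removed 9611. A gene was called when its p, adjusted by Benjamini-Hochberg over every tested gene, was under 0.05. Correlations used log2 CPM with a prior count of 2. Fold intervals are at 95%. DESeq2 1.42.0 and limma-voom (limma 3.58.1) in R 4.3.3 were alternatives. The script was tested on simulated data. Replicate libraries of a group differed by 3.06 to 13.5 times counting noise (chi-square per degree of freedom), so none was a duplicate. Exon lengths came from GENCODE M21 and start regions from RefSeq.

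All 7 receptor genes are named, with the 3 genes of smallest p per partner list in saline against wild type and in romidepsin against saline, and the 2 genes most correlated with each tested receptor, leaving out pseudogenes and unnamed genes. Members and lists were chosen with earlier results of these data known.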

Additional observations from a re-analysis of the deposited data

How the results depend on the processing

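Each count of called genes and each fold change was recomputed in 15 alternative settings. No receptor gene was called in any of them. Genes called over the whole table in saline against wild type, 1 as reported, numbered 31 with DESeq2, 12 with no filter, 2 with only the 2 groups fitted and 4 with the replicate block, and 1 to 54 with 1 library left out (54 without wild-type replicate 3, 2 without either romidepsin library, 9 when saline replicate 1 and 3 when saline replicate 3 was left out). In romidepsin against saline, 0 as reported, they numbered 0 to 3 with 1 library left out (3 without saline replicate 1 or romidepsin replicate 1). In romidepsin against wild type, 1 as reported, they numbered 4 with DESeq2, 2 with no filter, 0 with the replicate block and 0 to 3 with 1 library left out. Partner genes called in saline against wild type numbered 0 to 2 with 1 library left out. The cause was not tested.

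With 1 library left out, the log2 fold change in saline against wild type ranged from -0.029 to 0.15 for Grm5, from -0.0075 to 0.089 for Grm3 and from -0.028 to 0.42 for Grm8. In romidepsin against saline it ranged from -0.15 to 0.038 for Grm5, from -0.054 to 0.45 for Grm4 and from -0.12 to 0.012 for Grm7. In romidepsin against wild type it ranged from -0.028 to 0.047 for Grm5, from -0.11 to 0.18 for Grm2, from -0.056 to 0.040 for Grm3, from -0.41 to 0.098 for Grm4 and from -0.23 to 0.22 for Grm8. The log2 difference in summed level ranged from -0.11 to -0.042 in romidepsin against saline, from 0.057 to 0.12 in saline against wild type and from -0.0012 to 0.030 in romidepsin against wild type. The group II share differed by -2.48 to 1.21 percentage points in romidepsin against saline, -0.85 to 1.36 in saline against wild type and -2.41 to 1.28 in romidepsin against wild type.

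The correlations of deviations from the group means were -0.18 to 0.10 for same-numbered libraries and -0.16 to 0.24 for differently numbered ones. Deviations within a group of 2 or 3 libraries cancel out, so these values are constrained and cannot exclude a pairing. The numbers were not taken to pair the samples. With the replicate block, the romidepsin against wild type log2 fold change was -0.018 for Grm5, 0.022 for Grm3 and -0.10 for Grm8, and the other receptor directions held. Grm6 was not detectable at this depth, and the romidepsin group has 2 libraries.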
